A study of Mus musculus with 12 samples.

Results

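The genes described here encode endosomal sorting proteins and syntaxins. They were chosen by name: every gene whose only symbol in the array's annotation starts with Vps, Snx or Stx followed by a digit, leaving out 1 sorting nexin gene and the syntaxin-binding protein genes. The rule found 78 of the 18193 genes with a single symbol, of which 35 are Vps genes, 29 sorting nexins and 14 syntaxins. These 78 genes carry 169 probe sets, and each gene was read from its brightest probe set by the mean of all 12 arrays. A probe set's intensity also depends on its oligonucleotides, so values are compared between arrays and never between genes.

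Membrane cargo that enters a cell reaches endosomes, where it is either returned to the surface or the Golgi or passed on to lysosomes. Retromer, retriever and many sorting nexins carry cargo back, the ESCRT complexes sort cargo into inner vesicles for degradation, and tethering complexes such as HOPS, CORVET, GARP and EARP bring vesicles to their target membranes. Syntaxins are SNARE proteins, which pair with partner SNAREs on the opposite membrane to drive fusion, and each syntaxin works at particular compartments. Full-grown mouse oocytes hold a store of maternal mRNA and are nearly silent in transcription, and part of that store is degraded as the oocyte matures. DCP2 removes the 5′ cap of mRNA, and DCP1A is its activating partner.

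Full-grown germinal vesicle (GV) oocytes of the CF1 strain were microinjected with a control siRNA, a pool of siRNAs against Dcp1a, a pool against Dcp2, or a mixture of the Dcp1a and Dcp2 pools, here called the double knockdown. All 4 groups were kept for 20 h in milrinone, which holds oocytes in meiotic arrest, and were then matured in vitro for 18 h to metaphase II (MII). Each of the 3 replicates per group was an RNA extract of 30 pooled eggs on 1 Affymetrix array, and the series describes the replicates as independent. The knockdowns are transient, the females' age and the control siRNA's target were not given in the sources used here, and each value averages over 30 eggs, so fewer eggs with a transcript and less transcript per egg cannot be told apart.

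The deposited normalised intensities ran from 4.9 to 97950.8 arbitrary units, with 55.6% of values at or under 5. Dcp1a intensity was 8632 ± 3553 (SD, n = 3) with control siRNA, 1011 ± 365 with Dcp1a siRNA and 791 ± 386 in the double knockdown, and Dcp2 intensity was 48.1 ± 29.2 with control siRNA and between 4.93 and 4.97 on average in both groups that received Dcp2 siRNA. A pair of arrays stood apart from their own groups: control siRNA replicate 1 correlated at r = 0.938 to 0.954 with the other control arrays but at 0.978 to 0.988 with the Dcp1a siRNA arrays, and Dcp2 siRNA replicate 2 at 0.938 to 0.963 with its own group but at 0.978 to 0.985 with the Dcp1a siRNA arrays (log2 values of all tested probe sets). To a smaller degree this also held for the other control arrays. Control replicate 2 correlated at 0.954 to 0.967 with its own group and at 0.958 to 0.972 with the Dcp1a siRNA arrays, and control replicate 3 at 0.938 to 0.967 and 0.958 to 0.97. Of 12 egg marker genes listed, 11 were matched and all 11 were above the filter, with a summed intensity of 80080 to 112500 in the control arrays and 124600 to 133500 in the double knockdown. Of 18 cumulus and granulosa cell markers, 17 were matched and 15 stayed at or under 32 units on every array, Fshr being at 4.9 and Has2 at 5.1 to 9 throughout. Kitl (19.7 to 47.8 over the 12 arrays) and Nr5a2 (1202.6 to 2579.7) passed the filter, and Nr5a2 makes up most of the list's summed intensity of 1626 to 2232 in the control arrays and 1314 to 1578 in the double knockdown. Of 12 markers of other ovarian cells, 11 were matched and 10 stayed at or under 32 units, Ptprc being at 4.9 throughout, with sums of 97.9 to 112 and 87.8 to 97.2. The part of these marker levels in the results was not tested.

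A probe set was tested when its intensity exceeded 32 units on at least 3 of the 12 arrays, and 47 of the 78 genes passed: 23 Vps genes, 13 sorting nexins and 11 syntaxins. Of the 31 genes that did not pass, 29 were at or under 32 units on every array and 20 were at or under 10 units. The other 2 exceeded 32 units on 2 arrays each: Stx19, a syntaxin of epithelia, reached 38.7 units and Vps9d1 reached 34.2 units. The 31 include the BAR-domain sorting nexins Snx1, Snx8, Snx30, Snx32 and Snx33, the FERM-like Snx27 and Snx31, the HOPS core genes Vps16, Vps18 and Vps33a, the GARP genes Vps51 and Vps52, the ESCRT genes Vps25, Vps37a and Vps37d, and the plasma membrane syntaxins Stx4a and Stx11. Also not tested were Vps13c, Vps26b, Vps45, Snx10, Snx11, Snx14, Snx15, Snx19, Snx20, Snx21, Snx24 and Snx29. A low intensity can come from little transcript or from probes that bind poorly, so no absence is read from it. For the 47 tested genes, the filter used all arrays regardless of group, but Snx7 would not have passed without the Dcp1a siRNA arrays.

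The double knockdown against control siRNA asks how these transcripts differ after injection of both siRNA pools. The arrays do not measure the DCP1A and DCP2 proteins. Syntaxin 5a, the retriever subunit Vps35l, the cargo adaptor Snx17, the late endosomal syntaxin Stx8 and the plasma membrane syntaxin Stx2 rose, and the late endosomal syntaxin Stx7 and the HOPS subunit Vps41 fell (limma, adjusted p under 0.05 over 11593 probe sets). Thus 5 of the 47 tested genes (10.6%) were higher, against 6.78% of the 6996 tested genes read the same way, and 2 (4.26%) were lower, against 1.64%. The median log2 change over the 47 genes was -0.11, with a range of -2.57 to 3.16, 23 changes above 0 and 24 below, and the median over all tested genes was 7e-04. A change of more than 2-fold in either direction was measured for 8 of the 47 genes, and the matching share of all tested genes was not computed. Leaving out control siRNA replicate 1 gave 10 higher and 5 lower genes, beside 1179 and 340 of all 6996 genes, and leaving out control siRNA replicate 2 gave 3 and 0, beside 238 and 32. Leaving out replicate 2 of the double knockdown gave 3 and 1 (225 and 38 of all genes), the lower count was 0 without double knockdown replicate 1 (53 of all genes) and it was 1 without any 1 of the Dcp1a siRNA arrays. The counts of the 47 genes thus moved in the same direction as those of all genes in these settings. With no filter on low values, which adjusts over more probe sets, the calls of Snx17 (adjusted p = 0.103), Stx7 (0.151) and Vps41 (0.108) were lost, and with the spread of the 2 compared groups alone those of Snx17, Stx7, Vps41, Stx2 and Stx8.

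**Figure D1:**
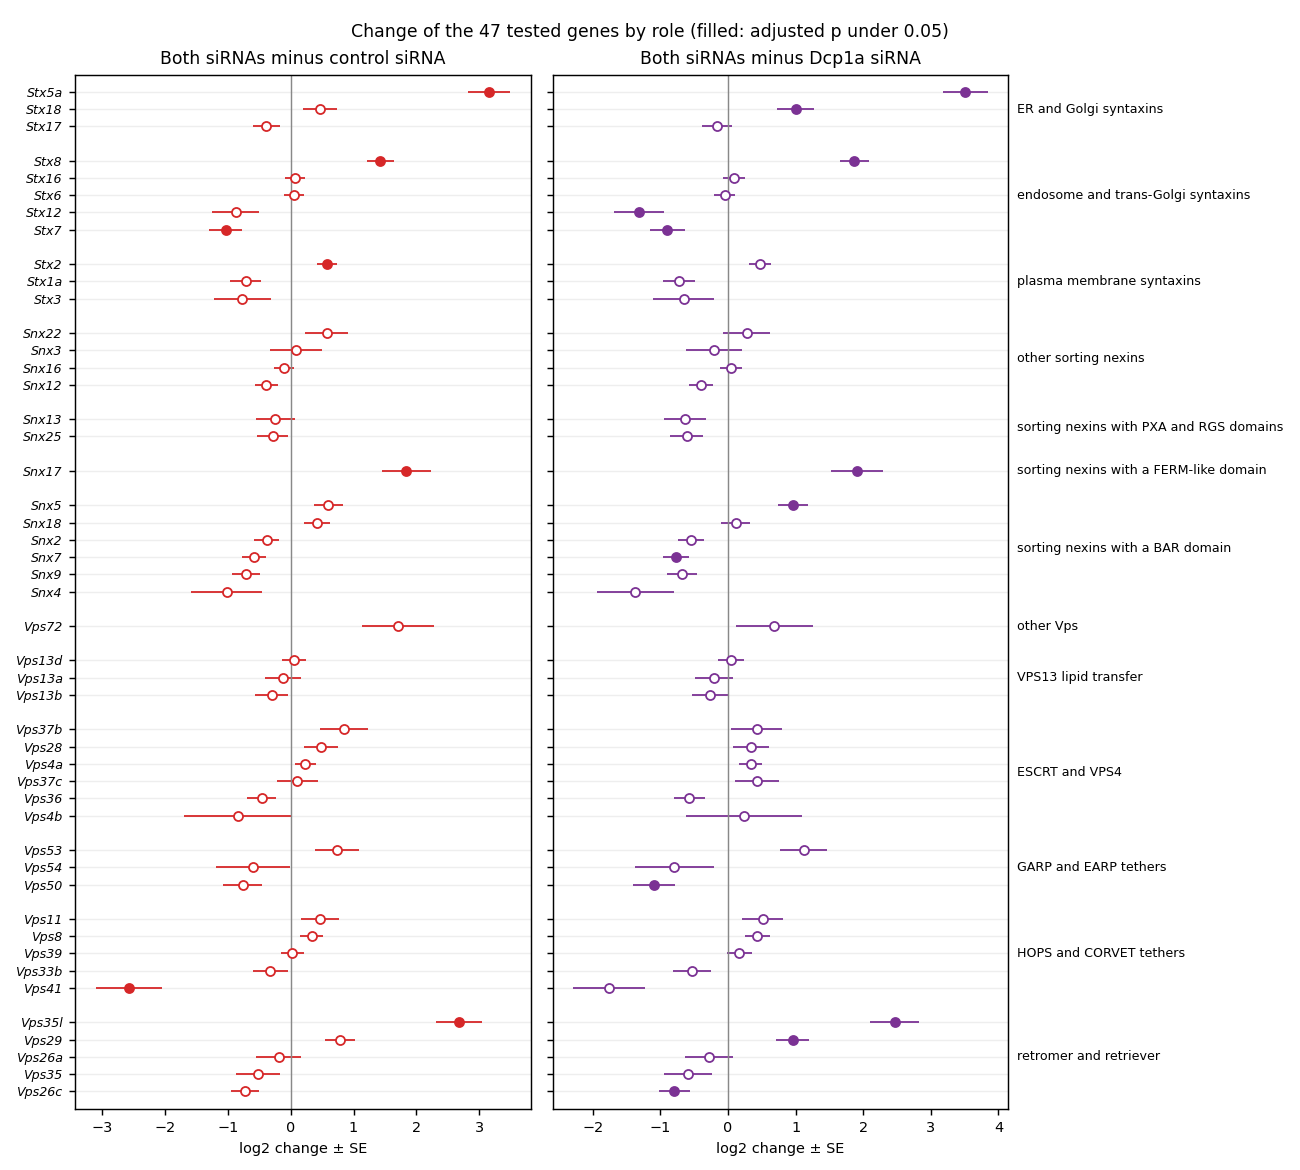
Log2 change ± SE of the 47 tested genes, grouped by role, for the double knockdown minus control siRNA (left) and minus Dcp1a siRNA (right), with filled points for adjusted p under 0.05. Stx5a lies farthest to the right in both panels at 3.16 and 3.51, and Vps41 farthest to the left in the left panel at -2.57.

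Each single knockdown used 1 siRNA pool alone. Neither called any of the 47 genes in limma's test against control siRNA. At an unadjusted p under 0.05 the Dcp1a siRNA gave 0 genes, or 0% against 4.9% of all tested genes, and the Dcp2 siRNA gave 4 genes, 1 higher and 3 lower, or 8.51% against 10.5%. Over all tested genes, 0.0572% were called with Dcp1a siRNA and 0.0286% with Dcp2 siRNA, so the count of 0 among 47 genes lies near the background. The median log2 change of the 47 genes was 0.01 with Dcp1a siRNA and -0.15 with Dcp2 siRNA, beside 0.10 and -0.08 over all tested genes.

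The double knockdown was then set against each single knockdown. Against Dcp1a siRNA, 7 genes were higher and 5 lower (14.9% and 10.6%, against 8.18% and 3.3% of all tested genes), and against Dcp2 siRNA, 5 were higher and 0 lower (10.6% and 0%, against 5.87% and 0.272%). Of the 5 lower genes, Snx7 passed the filter only with the Dcp1a siRNA arrays, the group where it is high. At an unadjusted p under 0.05, 3 of the 47 genes were lower in the double knockdown than with Dcp2 siRNA, beside 229 of all 6996. Between the single knockdowns 0 of the 47 genes were called by limma (0.0715% of all tested genes), and 9 had an unadjusted p under 0.05, 1 higher and 8 lower with Dcp2 siRNA, a share of 19.1% beside 21.8% of all tested genes. In all, 14 of the 47 genes were called in at least 1 comparison and 33 in none. The matching share of all tested genes was not computed, so nothing about these genes is read from this count. The comparisons share arrays: the double knockdown arrays enter 3 of the pairwise comparisons and so do the control arrays, so these counts are not separate pieces of evidence. Against Dcp1a siRNA, leaving out Dcp1a siRNA replicate 2 or 3 or double knockdown replicate 2 gave 4 higher and 0 lower genes, beside 349 to 371 higher and 36 to 52 lower of all 6996 genes. The lower count was 0 to 3 also without control replicate 2 or 3, Dcp1a siRNA replicate 1, Dcp2 siRNA replicate 1 or double knockdown replicate 1. The lower counts of all genes were then 205, 225, 74, 173 and 59, beside 231 with every array. Without control siRNA replicate 1 each single knockdown had 1 called gene, beside 3.22% of all genes for Dcp1a siRNA and 1.9% for Dcp2 siRNA, and without Dcp2 siRNA replicate 2 the single knockdowns differed in 3 of the 47 genes, beside 16% of all. With no filter on low values, 9 calls against Dcp1a siRNA were lost, and those of Stx5a, Vps35l and Stx8 were kept.

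**Figure D2:**
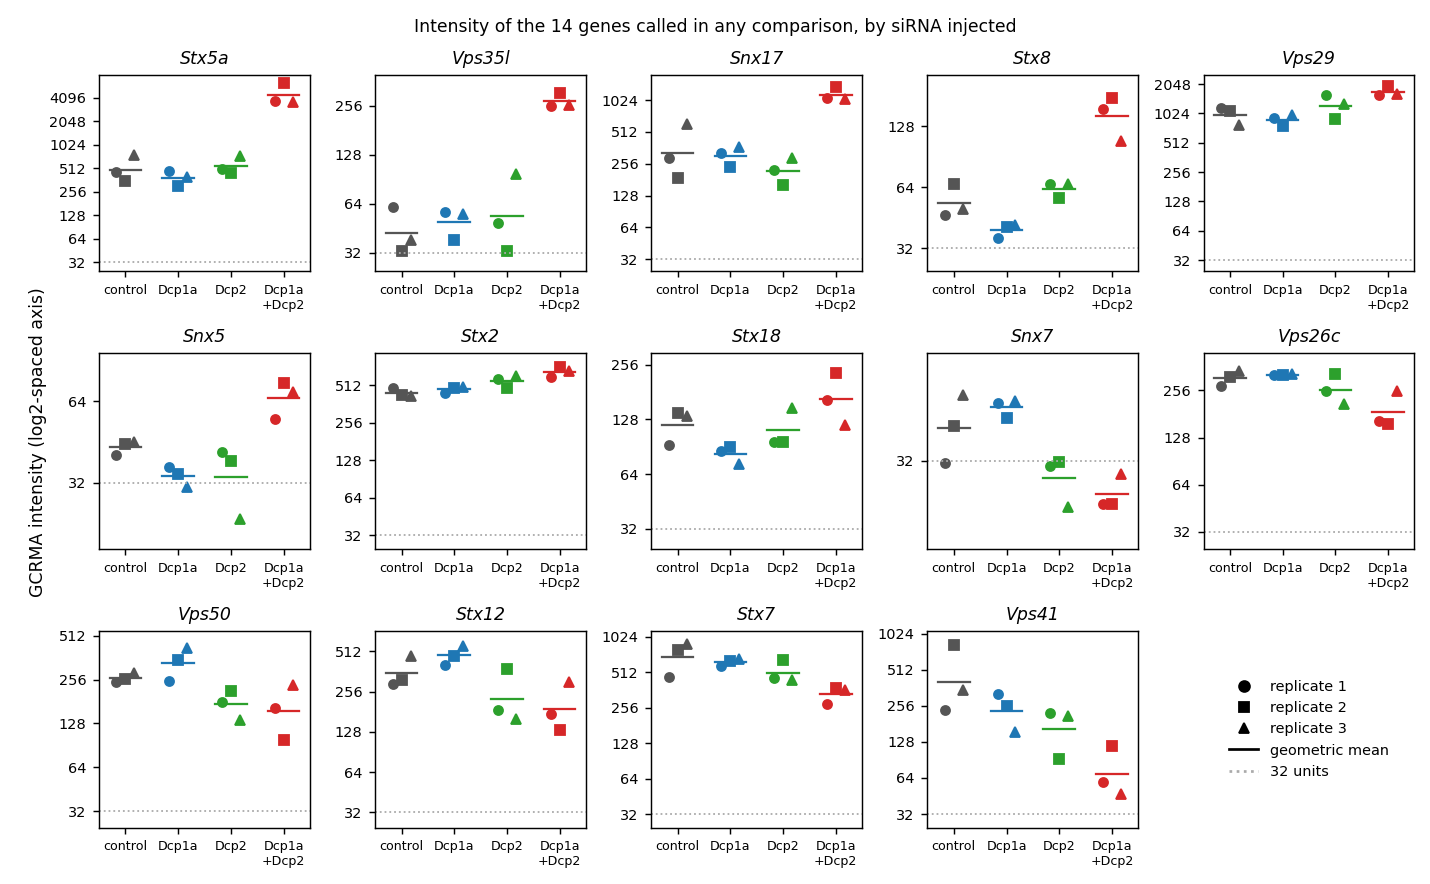
Intensity (arbitrary units, axis spaced by log2) of the 14 genes called in any comparison, by injected siRNA, with 1 point per array (circle, square and triangle for replicates 1, 2 and 3), a line at the geometric mean of the 3 arrays and a dotted line at 32 units. The 3 double knockdown arrays lie above all 9 others for Stx5a, Vps35l, Snx17, Stx8 and Snx5, and below all 9 for Stx7.

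Of the 47 genes, 5 (10.6%) had all 3 double knockdown arrays above the other 9 arrays, against 8.81% of all tested genes, and 1 (2.13%) had them below, against 1.87%. Both shares lie near those of all genes. With Dcp1a siRNA, Stx8 and Stx18 had all 3 arrays below the other 9 (4.26% of the 47 genes, against 1.73% of all).

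Promoter windows are shown for 6 called genes, of which Stx5a, Snx17, Stx8 and Snx5 were higher in the double knockdown than in at least 2 other groups and Stx7 and Vps41 were lower than with control siRNA. Vps35l was also called higher in the double knockdown than in each other group, but its window is not shown. They are the 120 bases before the RefSeq start of each gene on GRCm38.p6, 5′ to 3′ on the gene's strand, with matches to 5 motifs in capitals.
Stx5a, chr19:8741304-8741423, plus strand: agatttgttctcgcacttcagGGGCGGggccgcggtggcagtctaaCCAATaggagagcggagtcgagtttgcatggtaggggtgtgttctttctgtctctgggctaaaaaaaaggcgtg
Snx17, chr5:31193184-31193303, plus strand: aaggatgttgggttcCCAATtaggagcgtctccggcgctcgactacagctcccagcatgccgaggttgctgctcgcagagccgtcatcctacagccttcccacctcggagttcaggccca
Stx8, chr11:67966338-67966457, plus strand: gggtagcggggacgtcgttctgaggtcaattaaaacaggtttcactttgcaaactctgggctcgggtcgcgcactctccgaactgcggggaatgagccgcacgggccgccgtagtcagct
Snx5, chr2:144270573-144270692, minus strand: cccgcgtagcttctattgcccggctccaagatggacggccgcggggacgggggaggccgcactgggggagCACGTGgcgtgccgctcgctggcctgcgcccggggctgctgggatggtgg
Vps41, chr13:18717172-18717291, plus strand: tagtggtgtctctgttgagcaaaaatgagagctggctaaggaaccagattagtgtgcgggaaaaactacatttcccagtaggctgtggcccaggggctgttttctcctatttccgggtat
Stx7, chr10:24149169-24149288, plus strand: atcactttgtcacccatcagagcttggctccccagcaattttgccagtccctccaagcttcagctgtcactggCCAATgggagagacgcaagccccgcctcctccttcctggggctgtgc
The motifs were searched on both strands in the 250 bases before the start: the GC box with the letters GGGCGG, the CCAAT box with the letters of its name, the TATA box with the letters TATAAA, the E-box of the lysosomal CLEAR element with the letters CACGTG and the ETS site with the letters CCGGAAG. No motif lies within another. Of the 78 genes, 56 had a window, and the most 5′ start of each was used. The 32851 windows set beside them hold every listed start, so a gene can enter more than once. The shares are thus not like for like, and no enrichment is read from them. The GC box was in 39 of the 56 windows (69.6%), against 32.7% of all 32851 windows, and the CLEAR E-box in 7 (12.5%) against 6.02%. The ETS site was in 8 (14.3%) against 6.91%, the CCAAT box in 19 (33.9%) against 33.8% and the TATA box in 4 (7.14%) against 12.4%. Among the 6 windows shown, the CCAAT box was in those of Stx5a, Snx17 and Stx7, the E-box in that of Snx5 and the TATA box in none. The GC boxes were in the windows of Stx5a and Snx17, and Snx17 also had the ETS site, in both cases for Snx17 farther upstream than the bases shown. These are matches of letters only.

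Syntaxins of the ER and Golgi come first. Stx5a, whose window above holds a GC box and a CCAAT box, encodes syntaxin 5, the SNARE used in ER-to-Golgi and intra-Golgi transport. Its intensities were 456, 351 and 753 with control siRNA, 472.5, 308 and 401 with Dcp1a siRNA, 501, 445 and 748 with Dcp2 siRNA and 3716, 6294 and 3662 in the double knockdown. The 3 double knockdown arrays were far above every other array, and the other 3 groups overlapped. Stx5a rose 8.93-fold against control siRNA, a log2 change of 3.16 ± 0.33 (SE, adjusted p = 0.000281), by 3.51 ± 0.33 against Dcp1a siRNA (adjusted p = 0.000112) and by 3.0 ± 0.33 against Dcp2 siRNA (adjusted p = 0.000337). The log2 change was -0.35 for Dcp1a siRNA alone and 0.16 for Dcp2 siRNA alone. The call against control siRNA held under every alternative run, with an adjusted p of at most 0.016. The probe set's name marks it as one that can bind more than 1 transcript, and a second, dimmer probe set of Stx5a is described with the other probe sets.

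Stx18 encodes syntaxin 18, an ER SNARE for vesicles returning from the Golgi. Its intensities were 92.4, 138 and 134 with control siRNA, 85.5, 89.7 and 72.9 with Dcp1a siRNA, 96.6, 96.6 and 149 with Dcp2 siRNA and 164, 229 and 119.5 in the double knockdown. The Dcp1a siRNA arrays were the lowest 3 of the 12, and the double knockdown overlapped the control arrays. Stx18 was higher in the double knockdown than with Dcp1a siRNA by 1.00 ± 0.27 on the log2 scale (adjusted p = 0.0376), while against control siRNA the difference was 0.47 ± 0.27 (adjusted p = 0.276). The call was lost without any 1 of the Dcp1a siRNA arrays and without replicate 1 or 2 of the double knockdown (0.77 to 1.06, adjusted p = 0.0884 to 0.156), and with median centring (adjusted p = 0.0521) or quantile normalisation (adjusted p = 0.0535). Stx17, which acts at the ER and in the fusion of autophagosomes with lysosomes, ranged from 95.4 to 132 with control siRNA and from 70.2 to 91.3 in the double knockdown, which did not overlap, and its difference was -0.39 ± 0.22 (adjusted p = 0.254).

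All 5 listed syntaxins of endosomes and the trans-Golgi network were tested. Stx7 and Stx8 encode members of one late endosomal SNARE complex, and they went opposite ways. Stx8 intensities were 46.6, 66.1 and 50 with control siRNA, 35.9, 40.8 and 41.6 with Dcp1a siRNA, 66.1, 56.4 and 66.1 with Dcp2 siRNA and 155, 178 and 108 in the double knockdown. The double knockdown lay above all other arrays, the Dcp1a siRNA arrays lay below all others, and the Dcp2 siRNA arrays were mixed with the control arrays. Stx8 rose 2.68-fold against control siRNA (1.42 ± 0.22, adjusted p = 0.00255), by 1.87 ± 0.22 against Dcp1a siRNA (adjusted p = 0.000374) and by 1.20 ± 0.22 against Dcp2 siRNA (adjusted p = 0.00612). The calls of Stx8 held without any 1 array. The call against control siRNA was lost with the spread of the 2 compared groups alone (adjusted p = 0.0516), and the call against Dcp2 siRNA was lost with quantile normalisation (adjusted p = 0.0603) and with median centring (adjusted p = 0.0744).

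Stx7 intensities were 463, 789 and 885 with control siRNA, 580.5, 633 and 662 with Dcp1a siRNA, 455, 656 and 443 with Dcp2 siRNA and 275, 376 and 364 in the double knockdown. The double knockdown arrays were the lowest 3 of the 12, and the other groups overlapped. Stx7 fell by 1.03 ± 0.26 on the log2 scale against control siRNA (adjusted p = 0.032) and by 0.90 ± 0.26 against Dcp1a siRNA (adjusted p = 0.0473), and the difference from Dcp2 siRNA was -0.60 ± 0.26 (adjusted p = 0.283). The call against control siRNA was lost without control replicate 2 or 3, any 1 of the Dcp1a siRNA arrays or replicate 1 or 2 of the double knockdown (-0.85 to -1.12, adjusted p = 0.0534 to 0.131). The call against Dcp1a siRNA was lost without control replicate 2, Dcp2 siRNA replicate 1, any Dcp1a siRNA array or any double knockdown array (adjusted p = 0.0504 to 0.172), and with median centring, quantile normalisation or the trend (adjusted p = 0.0523 to 0.0622).

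Stx12 encodes the recycling endosome syntaxin also known as syntaxin 13. Its intensities were 291, 311 and 469 with control siRNA, 407, 475 and 558 with Dcp1a siRNA, 186, 377 and 159 with Dcp2 siRNA and 174, 131 and 304 in the double knockdown. All 3 Dcp1a siRNA arrays exceeded all 6 arrays that had received Dcp2 siRNA, and the control arrays overlapped the double knockdown. Stx12 was lower in the double knockdown than with Dcp1a siRNA by -1.32 ± 0.37 (adjusted p = 0.0428), and its difference from control siRNA was -0.87 ± 0.37 (adjusted p = 0.163). The call was lost without control replicate 2, Dcp2 siRNA replicate 1, any Dcp1a siRNA array or replicate 1 or 2 of the double knockdown (adjusted p = 0.056 to 0.175), and with the mean of its probe sets (-1.10, adjusted p = 0.0806). Stx16, a trans-Golgi SNARE for vesicles from endosomes, ranged from 64.6 to 75 with control siRNA and 81.7 to 91.1 with Dcp2 siRNA, which did not overlap (0.31 ± 0.16, adjusted p = 0.425). Stx6, its partner SNARE, ranged from 8426 to 10293 with control siRNA and from 9243 to 9995 in the double knockdown, a difference of 0.06 ± 0.16 (adjusted p = 0.832). A second, dimmer probe set of Stx6 gave 0.48 ± 0.31 for that difference (adjusted p = 0.316) and 0.77 ± 0.31 for Dcp1a siRNA against control siRNA (adjusted p = 0.853).

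Of 6 listed plasma membrane syntaxins, 3 were tested. Stx2, also called epimorphin, had intensities of 488, 428 and 419 with control siRNA, 443, 487 and 500.2 with Dcp1a siRNA, 578, 491 and 607 with Dcp2 siRNA and 595, 722 and 668 in the double knockdown. The double knockdown did not overlap the control arrays and overlapped the Dcp2 siRNA arrays. Stx2 rose by 0.57 ± 0.16 against control siRNA, with an adjusted p of 0.04996, and this call was lost under 15 of 22 alternatives. Among these, it was lost without control replicate 2 or 3, any Dcp1a siRNA array, Dcp2 siRNA replicate 1 or any double knockdown array (0.51 to 0.65, adjusted p = 0.066 to 0.18). Stx1a, the neuronal plasma membrane syntaxin, ranged from 162 to 299 with control siRNA and from 115 to 167 in the double knockdown (-0.72 ± 0.24, adjusted p = 0.0897). Stx3, an apical membrane syntaxin of epithelia, ranged from 16.3 to 24.6 in the double knockdown, under the filter's level, and from 20.9 to 61.9 with control siRNA (adjusted p = 0.278).

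Among the sorting nexins, Snx17 was the 1 tested gene with a FERM-like domain, and its protein binds cargo such as integrins and hands it to the retriever complex for recycling. Its intensities were 288, 188 and 612 with control siRNA, 325, 240.3 and 366 with Dcp1a siRNA, 225, 160.1 and 289.5 with Dcp2 siRNA and 1059.5, 1372 and 1051 in the double knockdown. The double knockdown arrays were above all others, while the control arrays spanned more than 3-fold and overlapped both single knockdowns. Snx17 rose 3.58-fold against control siRNA (1.84 ± 0.38, adjusted p = 0.0141), by 1.91 ± 0.38 against Dcp1a siRNA (adjusted p = 0.00874) and by 2.40 ± 0.38 against Dcp2 siRNA (adjusted p = 0.0032). Its call against control siRNA was lost without control replicate 2 (1.45, adjusted p = 0.0544) and without replicate 2 of the double knockdown (1.71, adjusted p = 0.0658). This probe set too carries the mark of one that can bind more than 1 transcript, as do those read for Vps29, Stx18, Stx1a, Stx6, Vps8, Vps11 and Vps37c. Among the partner genes described below, those of Use1, Commd9, Rab11fip5 and Cog4 carry such a mark as well.

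Of 11 BAR-domain sorting nexins, which bend and tubulate endosomal membrane, 6 were tested and none was called against control siRNA by limma (median -0.48). With 8.42% of all tested genes called in that comparison, this count too says little. Snx5, a partner of retromer in endosome-to-Golgi transport and the 1 printed window with a CLEAR E-box, had intensities of 40.5, 44.6 and 45.2 with control siRNA, 36.5, 34.3 and 30.9 with Dcp1a siRNA, 41.5, 38.4 and 23.5 with Dcp2 siRNA and 54.9, 74.6 and 69.4 in the double knockdown. The double knockdown arrays were above all 9 others, and Dcp2 siRNA replicate 3 was the lowest. Snx5 was higher in the double knockdown than with Dcp1a siRNA (0.96 ± 0.22, adjusted p = 0.0186) and than with Dcp2 siRNA (0.97 ± 0.22, adjusted p = 0.0247), while the difference from control siRNA was 0.60 ± 0.22 (adjusted p = 0.122). The first call was lost without Dcp1a siRNA replicate 2 or 3 or double knockdown replicate 2 (adjusted p = 0.0633 to 0.083), and the second without Dcp2 siRNA replicate 3 or double knockdown replicate 2 or 3 (adjusted p = 0.0603 to 0.103), with median centring (0.0898) and with quantile normalisation (0.0809).

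Snx7, a partner of Snx4 in endosomal recycling, had intensities of 31.6, 39.6 and 48 with control siRNA, 45.9, 41.6 and 46.2 with Dcp1a siRNA, 31, 31.8 and 24.1 with Dcp2 siRNA and 24.6, 24.6 and 29.5 in the double knockdown. All 6 arrays with Dcp2 siRNA were under 32 units, and all 3 Dcp1a siRNA arrays were above it. Snx7 exceeded 32 units on 5 arrays in all, the rest being control arrays. It thus passed the filter only with the Dcp1a siRNA arrays, the group where it is high, and its call against them carries no weight of its own. Snx7 was at least 1.39-fold lower in the double knockdown than with Dcp1a siRNA (adjusted p = 0.0271), a call lost without any 1 of the Dcp1a siRNA arrays and without double knockdown replicate 1 or 2 (adjusted p = 0.0691 to 0.101). With values under 32 units set to 32, the floor behind this bound, the change was -0.48 (adjusted p = 0.0767) and the call was lost. Snx4 itself had intensities of 972, 1033 and 1492 with control siRNA, 1123.5, 1500.4 and 1867 with Dcp1a siRNA, 425, 1236 and 292 with Dcp2 siRNA and 508, 295 and 1218 in the double knockdown. In both groups with Dcp2 siRNA 1 array was at the control level and 2 were well under it, and the difference of the double knockdown from Dcp1a siRNA was -1.37 ± 0.56 (adjusted p = 0.127). Snx9, which links endocytic membrane to actin, ranged from 3844 to 5481 with control siRNA and from 2444 to 3441 in the double knockdown, without overlap (-0.71 ± 0.22, adjusted p = 0.0706). Snx18, its paralog, ranged from 3843 to 6028 and from 5821 to 6360.3 (0.42 ± 0.21, adjusted p = 0.213), and Snx2, a retromer partner, from 211 to 264 and from 148 to 211 (-0.38 ± 0.19, adjusted p = 0.217).

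The remaining tested sorting nexins were not called in any of the 7 comparisons. Snx13 and Snx25 carry PXA and RGS domains, and their differences between the double knockdown and control siRNA were -0.24 ± 0.31 and -0.28 ± 0.24. Snx13 ranged from 516 to 714 with Dcp1a siRNA and from 233 to 483 with Dcp2 siRNA, which did not overlap (-0.93, adjusted p = 0.204). Snx3, which sorts cargo together with retromer, ranged from 118 to 376 with control siRNA and from 212 to 235 in the double knockdown (0.08 ± 0.42, adjusted p = 0.913). Its paralog Snx12 ranged from 1583 to 1807 and from 1166 to 1479.9 (-0.39 ± 0.18, adjusted p = 0.188). Snx16, an endosomal sorting nexin with a coiled coil, gave -0.11 ± 0.16 (adjusted p = 0.669) and Snx22 gave 0.57 ± 0.34 (adjusted p = 0.283).

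Retromer is built of Vps35, Vps26a or Vps26b and Vps29, and retriever of Vps35l, Vps26c and the shared Vps29. Of these 6 genes, 5 were tested. Vps35l intensities were 61.1, 32.7 and 38.5 with control siRNA, 57, 38.2 and 55.5 with Dcp1a siRNA, 48.7, 32.9 and 97 with Dcp2 siRNA and 256, 307 and 258 in the double knockdown. The double knockdown arrays were close together and above every other array, and the highest of the rest was Dcp2 siRNA replicate 3. Vps35l rose 6.41-fold against control siRNA (2.68 ± 0.37, adjusted p = 0.00145), by 2.46 ± 0.37 against Dcp1a siRNA (adjusted p = 0.00161) and by 2.34 ± 0.37 against Dcp2 siRNA (adjusted p = 0.0029). These 3 calls held under every alternative run, with adjusted p of at most 0.0193, 0.0202 and 0.0343. The 4 other probe sets of Vps35l stayed at or under 32 units on every array, so the rise rests on 1 of its 5 probe sets.

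Vps29 intensities were 1165, 1082 and 776 with control siRNA, 915, 769 and 981 with Dcp1a siRNA, 1594, 894 and 1290.5 with Dcp2 siRNA and 1577, 1976 and 1619 in the double knockdown. The double knockdown lay above both the control and the Dcp1a siRNA arrays and overlapped the Dcp2 siRNA arrays. Vps29 was higher in the double knockdown than with Dcp1a siRNA by 0.96 ± 0.24 (adjusted p = 0.0268), and by 0.79 ± 0.24 than with control siRNA (adjusted p = 0.0694). The call was lost without any 1 of the Dcp1a siRNA arrays and without double knockdown replicate 1 or 2 (0.85 to 1.03, adjusted p = 0.0634 to 0.112).

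Vps26c, the remaining retriever gene, had intensities of 273, 311 and 343 with control siRNA, 322, 322 and 324 with Dcp1a siRNA, 253, 325 and 209 with Dcp2 siRNA and 163, 155 and 254 in the double knockdown. The double knockdown lay below the control and Dcp1a siRNA arrays, so that the 3 retriever genes did not all differ in one direction. Vps26c was lower in the double knockdown than with Dcp1a siRNA by -0.79 ± 0.23 (adjusted p = 0.0444), and the difference from control siRNA was -0.73 ± 0.23 (adjusted p = 0.0749). This call was lost without control replicate 2 or 3, Dcp2 siRNA replicate 1, any Dcp1a siRNA array or double knockdown replicate 1 or 2 (adjusted p = 0.05004 to 0.175). The retromer genes Vps35 and Vps26a were not called: Vps35 ranged from 1194 to 1292 with control siRNA, 392 to 1109 with Dcp2 siRNA and 639 to 1233 in the double knockdown (-0.52 ± 0.35, adjusted p = 0.34), and Vps26a from 569 to 1074 with control siRNA and 444 to 981 in the double knockdown (-0.19 ± 0.35, adjusted p = 0.737).

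HOPS and CORVET tether late and early endosomes, and 5 of the 8 genes listed with them were tested. Vps33b is on this list as a relative of the core gene Vps33a, which was not tested, and is not itself a core subunit. Vps41, a HOPS subunit, had intensities of 235, 832 and 345 with control siRNA, 322, 253 and 155 with Dcp1a siRNA, 224, 92.7 and 210 with Dcp2 siRNA and 59.5, 117 and 46.6 in the double knockdown. The 3 double knockdown arrays lay under all control and Dcp1a siRNA arrays, Dcp2 siRNA replicate 2 lay among them, and control replicate 2 was far above the rest. Vps41 fell by 2.57 ± 0.53 against control siRNA on the log2 scale (adjusted p = 0.0131), and the differences were -1.76 ± 0.53 from Dcp1a siRNA (adjusted p = 0.053) and -1.25 from Dcp2 siRNA (adjusted p = 0.266). The call was lost without control replicate 2 (-2.05, adjusted p = 0.0533) and without double knockdown replicate 1 (-2.46, adjusted p = 0.0533). With the mean of its probe sets the change was -1.05 (adjusted p = 0.0475), since another probe set of Vps41, described with the other probe sets, went the other way. Of the other genes, Vps39 (0.03 ± 0.18), Vps11 (0.47 ± 0.31), Vps33b (-0.32 ± 0.28) and the CORVET subunit Vps8 (0.33 ± 0.18) had adjusted p of 0.242 or more against control siRNA.

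GARP and EARP tether vesicles at the trans-Golgi and at recycling endosomes, and Vps50 is the subunit found in EARP but not in GARP. Vps50 intensities were 248, 259.8 and 286 with control siRNA, 252, 348 and 426 with Dcp1a siRNA, 180.3, 213 and 135 with Dcp2 siRNA and 162, 99.2 and 235 in the double knockdown. Every array with Dcp2 siRNA was under every array without it. Vps50 was lower in the double knockdown than with Dcp1a siRNA by -1.10 ± 0.31 (adjusted p = 0.0424), while its difference from control siRNA was -0.76 ± 0.31 (adjusted p = 0.148). The call was lost without control replicate 2 or 3, Dcp1a siRNA replicate 2 or 3, Dcp2 siRNA replicate 1 or double knockdown replicate 1 or 2 (adjusted p = 0.0515 to 0.166). The shared subunit Vps53 ranged from 102 to 113 with control siRNA and from 144 to 283 in the double knockdown, without overlap (0.74 ± 0.35, adjusted p = 0.19), and the GARP subunit Vps54 from 40.4 to 134 and from 30.9 to 112 (-0.60 ± 0.59, adjusted p = 0.503).

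None of the 6 tested ESCRT and VPS4 genes was called by limma in any comparison (median change in the double knockdown 0.17 against control siRNA). Since 8.42% of all tested genes were called against control siRNA, no call among 6 genes says little about them. Vps4a and Vps4b encode the ATPases that take ESCRT-III filaments apart. Vps4a ranged from 348 to 411 with control siRNA and from 416 to 447 in the double knockdown, without overlap (0.23 ± 0.17, adjusted p = 0.361). Vps4b ranged from 108 to 448 and from 68.6 to 237 (-0.84 ± 0.85, adjusted p = 0.522), with 1 Dcp2 siRNA array at 278 and another at 18.7, so its error was the widest of these genes. Among ESCRT-I subunits, Vps37b ranged from 113 to 336 with control siRNA and from 233 to 377 in the double knockdown (0.85 ± 0.38, adjusted p = 0.174). Vps37c ranged from 206 to 598 and from 394 to 426 (0.11 ± 0.32, adjusted p = 0.846), and Vps28 gave 0.48 ± 0.27 (adjusted p = 0.254). The ESCRT-II subunit Vps36 ranged from 43.5 to 69.4 with control siRNA and from 34 to 42 in the double knockdown, without overlap (-0.46 ± 0.23, adjusted p = 0.203).

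VPS13 proteins move lipids between membranes, and Vps13a (-0.12 ± 0.28), Vps13b (-0.30 ± 0.26) and Vps13d (0.05 ± 0.19) were not called on their brightest probe sets in any comparison. Vps72 carries the Vps name but encodes a chromatin protein that handles the histone variant H2A.Z. Its intensities were 3013, 425 and 541 with control siRNA, 2014, 1592 and 1819 with Dcp1a siRNA, 1777, 1699.9 and 2739 with Dcp2 siRNA and 2914, 3056 and 2721 in the double knockdown. Control replicate 1 was at the level of the double knockdown, and the other 2 control arrays were under every other array. The difference was 1.71 ± 0.57 for the double knockdown (adjusted p = 0.0897), and without both control siRNA replicate 1 and Dcp2 siRNA replicate 2, a setting chosen after seeing the data, it was 2.59 ± 0.22 (adjusted p = 0.000339).

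**Figure D3:**
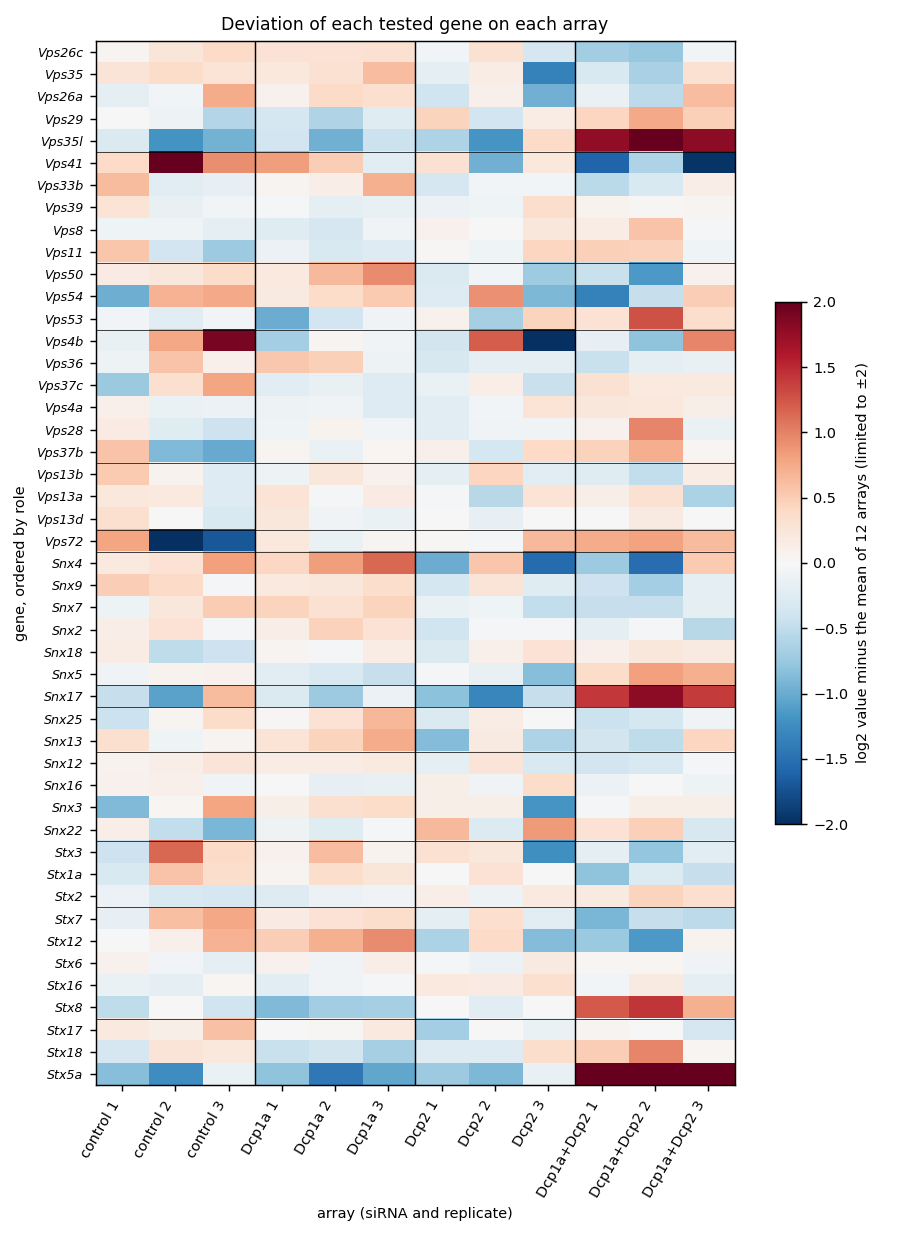
Heat map of the 47 tested genes (rows, grouped by role) over the 12 arrays (columns, by siRNA and replicate), coloured by log2 value minus the gene's mean over the 12 arrays and limited to 2 either way. Control siRNA replicate 1 and Dcp2 siRNA replicate 2 differ from the other arrays of their groups for many genes, such as Vps72 and Snx4.

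The spread between arrays differed by group. The median SD of the log2 values of the 47 genes was 0.32 with control siRNA, 0.15 with Dcp1a siRNA, 0.33 with Dcp2 siRNA and 0.27 in the double knockdown, and over all tested probe sets it was 0.37, 0.16, 0.38 and 0.27. For 16 of the 47 genes (34%), Snx4, Stx12, Vps35, Vps36, Vps4b and Vps50 among them, Dcp2 siRNA replicate 2 and double knockdown replicate 3 were each the highest of their group, as they were for 38% of all tested genes. A setting chosen after seeing the data left out control siRNA replicate 1 and Dcp2 siRNA replicate 2. In it, 17 of the 47 genes were called in the double knockdown against control siRNA, against 28.4% of all tested genes. All 7 genes called with every array were kept, and Snx7, Snx9, Snx18, Snx22, Stx1a, Vps11, Vps26c, Vps29, Vps37b and Vps72 were added. With these 2 arrays left out, Dcp1a siRNA gave 3 called genes (Vps37b, Vps37c and Vps72, against 5.46% of all tested genes) and Dcp2 siRNA gave 7 (Snx7, Snx22, Stx7, Vps4b, Vps37b, Vps37c and Vps72, against 21.6%).

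A departure from additivity asks whether the log2 change in the double knockdown differs from the sum of the changes in the single knockdowns. It was positive for Stx5a (3.35 ± 0.47, adjusted p = 0.00323), Snx17 (2.47 ± 0.54, adjusted p = 0.0282), Vps35l (2.13 ± 0.52, adjusted p = 0.0466), Stx8 (1.64 ± 0.30, adjusted p = 0.0127) and Snx5 (1.33 ± 0.32, adjusted p = 0.0415), and negative for 0 of the 47 genes by limma. At an unadjusted p under 0.05 there were 6 positive and 0 negative departures, beside 638 and 118 (10.8%) of all 6996 genes. The 5 genes are 10.6% of the 47, against 3.7% of all tested genes with a positive and 0.0572% with a negative departure, and the median departure was -0.06 over the 47 genes and -0.08 over all. The 2 late endosomal genes that fell, Stx7 (-0.47) and Vps41 (-0.44 ± 0.75), had no called departure. Leaving out 1 array at a time left the calls of Stx5a and Stx8 in place, with 2 to 5 positive departures in all. The call of Snx17 was lost without any Dcp1a siRNA array, Dcp2 siRNA replicate 1 or 2 or any double knockdown array (adjusted p = 0.0513 to 0.0862). That of Vps35l was lost without any array other than control replicate 2 and Dcp2 siRNA replicate 3 (adjusted p = 0.0726 to 0.136), and that of Snx5 without any array other than control replicate 1 and Dcp2 siRNA replicates 1 and 3 (adjusted p = 0.0524 to 0.122). With median centring or quantile normalisation the calls of Vps35l, Stx8 and Snx5 were lost (adjusted p = 0.0554 to 0.0849), and with no filter that of Snx17 too.

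**Figure D4:**
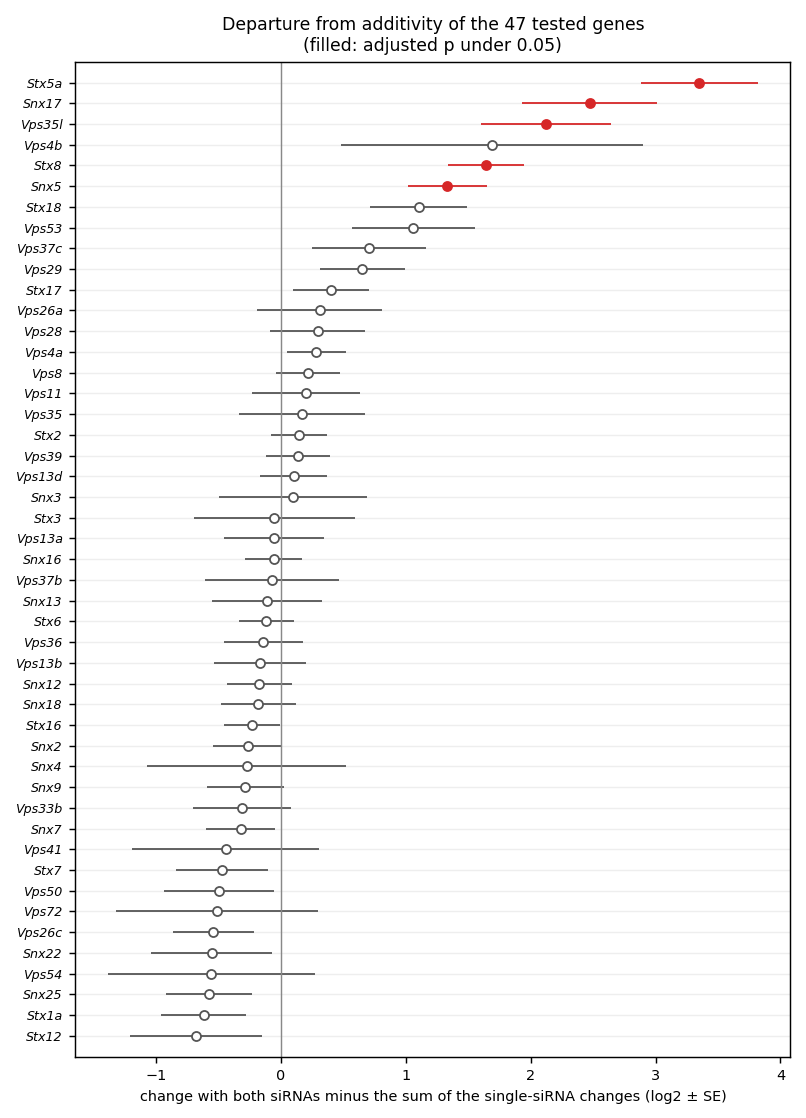
Departure from additivity of the 47 tested genes, the double knockdown's log2 change less the 2 single-knockdown changes added up, as points ± SE sorted by size, with filled points for adjusted p under 0.05. The 5 filled points are Stx5a, Snx17, Vps35l, Stx8 and Snx5, all on the positive side, and Vps4b lies among them with a wide error.

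The genes tested have 69 other probe sets, of which 19 passed the filter. All other probe sets of Vps35l (4), Snx5 (4), Stx18 (4), Stx8 (2) and Vps50 (1) stayed at or under 32 units on every array. The calls of these genes rest on 1 probe set each. For Stx5a a second probe set read 5.7 on each control array, 6.2 on each array of either single knockdown and 33, 48.3 and 72.6 in the double knockdown, at least 1.52-fold higher than with control siRNA by the floor of 32 units. It passed the filter only through the double knockdown arrays, so it is given as a description with no test. For Vps29 a second probe set read 122, 86.6 and 76.6 with control siRNA and 120.1, 160.5 and 194 in the double knockdown (0.74 ± 0.23, adjusted p = 0.0781). For Stx12 a second probe set read 166, 181 and 142 with Dcp1a siRNA and 82.8, 68.7 and 118 in the double knockdown, again without overlap.

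Other genes' probe sets differed from one another. For Vps41 a second probe set read 29.9, 38.7 and 37.8 with control siRNA and 39.4, 54.2 and 53.3 in the double knockdown, a difference of 0.46 ± 0.18 (adjusted p = 0.138) opposite in sign to the fall of the brightest, and another read 4.9 on every array. For Vps13a, whose brightest probe set gave -0.21 in the double knockdown against Dcp1a siRNA, 2 other probe sets were lower, by -1.96 ± 0.47 (adjusted p = 0.0204) and -0.98 ± 0.26 (adjusted p = 0.0361). For Snx18, whose brightest gave 0.11, another read 413, 302 and 522 with Dcp1a siRNA and 217, 202 and 247 in the double knockdown, lower by -0.86 ± 0.22 (adjusted p = 0.0302). For Snx9 the second probe set gave 0.60 against control siRNA (adjusted p = 0.519), opposite in sign to the brightest. These genes' transcripts may be read at different places by each probe set, and which reading stands for the whole transcript was not tested.

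**Figure D5:**
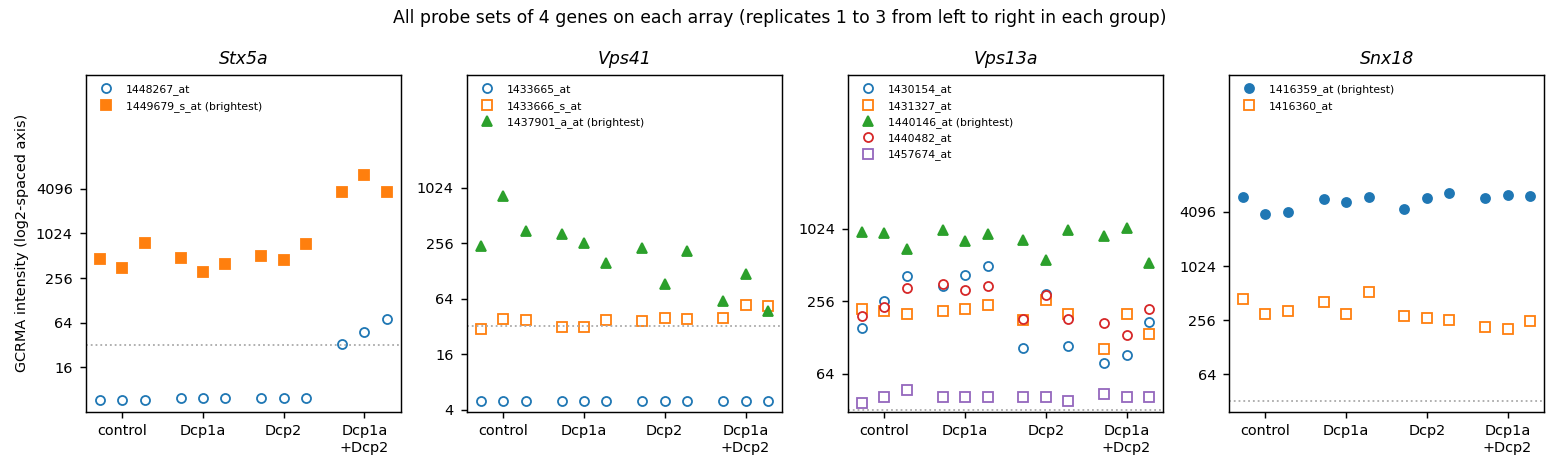
Intensity (arbitrary units, axis spaced by log2) of every probe set of Stx5a, Vps41, Vps13a and Snx18 on each of the 12 arrays (replicates from left to right in each group), with a colour and marker for each probe set, filled for the brightest, and a dotted line at 32 units. Both Stx5a probe sets are highest on the 3 double knockdown arrays, while those of Vps41, Vps13a and Snx18 differ in direction or size.

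Of 17 listed pairs of related genes, 8 had both genes tested, and differences within pairs were not tested. Vps39 and Vps41 are different HOPS subunits and not paralogs of each other. In the double knockdown against control siRNA the log2 changes were 0.03 for Vps39 beside -2.57 for Vps41 and 3.16 for Stx5a beside 0.07 for Stx16. They were -0.71 for Snx9 beside 0.42 for Snx18, and 0.57 for Stx2 beside a fitted -0.77 for Stx3. The Stx3 value is no measured size, since its double knockdown arrays were under 32 units. The changes of Stx7 and Stx12, both endosomal, were close at -1.03 and -0.87, of which the first was called, and those of Snx13 and Snx25 at -0.24 and -0.28. The other 2 pairs gave 0.23 for Vps4a beside -0.84 for Vps4b and 0.08 for Snx3 beside -0.39 for Snx12.

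Partner genes were taken from lists of the same pathways. Among 20 tested SNARE genes other than syntaxins (29 of 29 matched), 2 were called higher, of which 1 (Vamp8) passed the filter only through that group, and 1 was called lower in the double knockdown against control siRNA, with a median change of -0.28. Use1, the SNARE that pairs with syntaxin 18 at the ER, read 33.5, 46.3 and 40 with control siRNA and 88.7, 76.2 and 96.5 in the double knockdown, and rose by 1.13 ± 0.24 (adjusted p = 0.0142). Vamp8, which pairs with syntaxins 7 and 8 on late endosomes, read 25.3, 10.2 and 25 and 40.5, 57.7 and 87.1, at least 1.84-fold higher by the floor of 32 units. Vamp8 exceeded 32 units on the 3 double knockdown arrays alone and so passed the filter only through the group where it is high, and its call (adjusted p = 0.0227) carries no weight of its own. Vamp7, another late endosomal and lysosomal SNARE, read 961, 1556 and 1486 and 605, 582.5 and 680.4, and fell by 1.07 ± 0.25 (adjusted p = 0.0238).

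Among 13 tested exocyst and other tether genes (22 of 22 matched; median 0.44), Zw10, a tether that works with syntaxin 18, read 522.5, 433 and 629 with control siRNA and 761, 860.2 and 923 in the double knockdown and was higher by 0.70 ± 0.18 (adjusted p = 0.0327). Among 13 tested genes of retromer's partners, the WASH complex and Commander (22 of 22 matched; median 0.15), Commd9, a Commander subunit that binds retriever, read 104, 115 and 144 and 319, 517.5 and 309.8, a rise of 1.63 ± 0.41 (adjusted p = 0.0302). Dcp2 siRNA replicate 1 read 457 for Commd9 while the other Dcp2 siRNA arrays read 125 and 193. Among 16 tested further ESCRT genes (25 of 26 matched; median -0.22), Chmp7, an ESCRT-III-like protein of the nuclear envelope, rose by 1.00 ± 0.23 (adjusted p = 0.0202), from 136, 157 and 209 to 331, 375 and 285. Among 21 tested Rab proteins and effectors (35 of 36 matched; median -0.12), Rab11fip5, a recycling endosome effector, rose by 1.18 ± 0.33 (adjusted p = 0.0485). Among 14 tested phosphoinositide enzymes (15 of 16 matched; median -0.15), none was called by limma. Each of these lists holds 0 or 1 genes that fell and at most 2 that rose, beside 1.64% lower and 6.78% higher of all tested genes. No excess or lack is read from such small counts. Most genes of the lists did not pass the test, and the alternative settings were not run for them.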

How the data were processed

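Gene expression in mouse MII eggs was measured on 12 single-colour Affymetrix arrays, 3 for each of 4 injected siRNAs, and samples were grouped by the siRNA that the labels name. The deposited table holds 1 normalised intensity on a linear scale per probe set and array, and GCRMA is the tool named by the submitters' processing notes, with no version given. GCRMA corrects background by probe sequence and brings arrays to a common distribution, which compresses low values, so 55.6% of values lie at or under 5. The raw scans were not analysed here, and the number of arrays limits the precision.

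The log2 of each intensity was analysed. The table lists 45101 probe sets, 64 of them array controls that were removed, and 11593 were tested because they exceeded a log2 value of 5 (32 units) on at least 3 of the 12 arrays. Gene symbols came from the platform's annotation: 34945 probe sets had 1 symbol, 932 several and 9160 none listed. A group-means model over all 12 arrays was fitted with lmFit and eBayes, with no trend, of limma 3.58.1 (R 4.3.3; 8 residual and 2.97 prior degrees of freedom), and p-values were adjusted by Benjamini-Hochberg over all tested probe sets in each of 7 comparisons, with a threshold of 0.05. All tests were two-sided. An exact permutation test of 3 arrays against 3 cannot go below p = 0.1 and was not used. Where the dimmer group was at or under 32 units on average, a fold was given as at least the brighter mean over 32 units. The procedure was tested on simulated data.

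The genes named are all those chosen by symbol, and partner genes that passed the test against control siRNA. The genes and lists were chosen with earlier results of these data known. The alternatives were median centring, quantile normalisation, no filter, a stricter filter at a log2 value of 6, a floor of 32 units, an intensity trend in eBayes, the spread of the compared groups alone, the mean of a gene's probe sets, the replicate number as a block, and leaving out each array in turn. A further setting, without control siRNA replicate 1 and Dcp2 siRNA replicate 2, was chosen after seeing the data. Promoter windows are RefSeq's on GRCm38.p6. Protein and siRNA sequences were not used here.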

Additional observations from a re-analysis of the deposited data

Results flagged for a closer look

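The results named here stand out because the effect of both siRNAs differed, by limma's interaction term, from the sum of the effects of the single siRNAs. The departure from additivity on the log2 scale was 3.35 for Stx5a on its brightest probe set, 2.47 for Snx17, 2.13 for Vps35l, 1.64 for Stx8 and 1.33 for Snx5. In each case the 3 double knockdown arrays were above the other 9 arrays. The second Stx5a probe set was fitted at 2.85, which is not a measured size: it was at 6.2 units or less on all 9 other arrays and passed the filter of 32 units only through the double knockdown, so what it gives is a bound of at least 1.52-fold against each other group, and it supports nothing by itself. No gene among the 47 had a called departure in the negative direction, and 3.76% of all tested genes had one in either direction.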

How the results depend on the processing

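Of 29 calls of single genes over the 7 comparisons, 9 were kept under every setting run (up to 22 each), 20 were lost under at least 1 and 0 reversed in sign. The kept calls are the 4 of Stx5a, the 3 pairwise calls of Vps35l, Stx8 against Dcp1a siRNA and Snx17 against Dcp2 siRNA. In the double knockdown against control siRNA, 5 higher genes became 2 with the spread of the compared groups alone and 11 without control siRNA replicate 1 and Dcp2 siRNA replicate 2, and 2 lower genes became 4 with median centring, 4 with quantile normalisation, 0 with no filter, 0 with the spread of the compared groups alone and 6 without those 2 arrays. Against Dcp1a siRNA, 7 higher genes became 3 with no filter, and 5 lower genes became 0 with no filter, 3 with the trend, 2 with the replicate block and 8 without the 2 arrays. Against Dcp2 siRNA, 5 higher genes became 3 with median centring and 3 with quantile normalisation. The 5 positive departures from additivity became 2 with median centring, 2 with quantile normalisation, 1 with no filter and 3 with the replicate block, and without the 2 arrays there was 1 negative departure (Vps72, -1.52). Without the 2 arrays the counts of 0 became 3 for Dcp1a siRNA, 7 for Dcp2 siRNA and 7 between the single knockdowns, beside 5.46%, 21.6% and 21.1% of all tested genes. The shares of all tested genes in that setting were 28.4% for the double knockdown against control siRNA, 22.5% against Dcp1a siRNA and 5.49% for departures. For settings that left out no array, the share of all tested genes was not computed, so nothing about these genes is read from those counts.

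Leaving out 1 array at a time gave 3 to 10 higher and 0 to 5 lower genes against control siRNA, while the share of all genes called ran from 3.76% to 21.7%, 0 to 1 for either single knockdown, 4 to 8 and 0 to 7 against Dcp1a siRNA (5.62% to 19.7% of all genes), 4 to 5 and 0 against Dcp2 siRNA (3.95% to 7.16%), 0 to 3 between the single knockdowns (0% to 16%) and 2 to 5 positive and 0 to 1 negative departures (2.13% to 5.1%). The change of Dcp1a ran from -3.84 to -3.17 in the double knockdown and from -3.39 to -2.74 with its own siRNA, and the fitted difference of Dcp2 from -3.38 to -2.67 and from -3.37 to -2.66. The Dcp2 values are no measured sizes, since both groups with Dcp2 siRNA lie under 32 units, and support only a fall of at least 1.35-fold. The call of Dcp1a with its own siRNA was lost in 9 of the 12 leave-one-out runs (adjusted p up to 0.218) and that of Dcp2 with its own siRNA in 4 (up to 0.129).

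The change of Dcp1a with its own siRNA was -3.09 (adjusted p = 0.0319); its adjusted p was 0.402 with no filter, 0.0601 with the stricter filter, 0.0801 with the floor, 0.472 with the spread of the compared groups alone and 0.176 with the replicate block, and the mean of its probe sets gave -2.14 (adjusted p = 0.831). For Dcp2 with its own siRNA, at least 1.35-fold lower and fitted at -3.12, the adjusted p was 0.161 with no filter and 0.691 with the spread of the compared groups alone, and with the floor the change was -0.45 with its own siRNA (adjusted p = 0.508) and -0.45 in the double knockdown (adjusted p = 0.38). The cause of these changes was not tested, except that no filter adjusts over more probe sets, the spread of 2 groups rests on fewer arrays and the floor raises low values. Median centring takes out the median difference over all tested genes, which was -0.16 between the single knockdowns.

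Replicate numbers are shared between the groups. The deviations of same-numbered arrays from their group means correlated at -0.685 to 0.394 over 18 pairs (median 0.0855, 9 over 0.1), and those of differently numbered arrays at -0.506 to 0.722 over 36 pairs, so the numbers were not taken to pair the arrays. With the replicate block, 6 of 7 calls against control siRNA were kept, without Stx2. Against Dcp1a siRNA 8 genes were called, 7 of them kept and Stx1a added, and the block ended the calls of Stx12 (adjusted p = 0.0633), Stx18 (0.0608), Vps26c (0.077), Vps50 (0.0682) and Snx7 (0.056). There were 5 calls against Dcp2 siRNA and 3 departures, without Vps35l and Snx5. Values under 32 units limit 31 of the 78 genes, for which no change was tested.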

Other observations

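Calls outside the comparison with control siRNA added a few partner genes, named here after their values were seen. Cog4, a subunit of the Golgi tether COG, was higher in the double knockdown than with Dcp1a siRNA by 1.22 ± 0.33 on the log2 scale (limma, adjusted p = 0.0376), and Sec22c, an ER SNARE-like protein, was lower by -0.78 ± 0.21 (adjusted p = 0.0386). Zw10 was higher than with Dcp1a siRNA by 1.03 ± 0.18 (adjusted p = 0.00353), and Use1 was at least 2.58-fold higher (adjusted p = 0.00143). Use1 also departed from additivity, fitted at 1.60 ± 0.33 (adjusted p = 0.0231). This is no measured size, since its mean with Dcp1a siRNA was 28.93, under 32 units. Commd1, a Commander subunit, was higher in the double knockdown than with Dcp2 siRNA by 0.82 ± 0.22 (adjusted p = 0.047).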
